A study of Mus musculus with 15 samples.

Results

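The comparison described here sets the 3 libraries of Atg7 knockout (KO) cells at day 2 against the 3 libraries of control cells at day 2, chosen by their titles, 6 of the 15 libraries in the series. All 6 came from the mouse embryonic stem cell (ESC) line E14TG2 on its way to epiblast-like cells (EpiLCs), and RNA-seq was made from polyadenylated RNA. Before the transition the ESCs of both groups were kept on mitotically inactivated mouse embryonic fibroblasts with LIF, the MEK inhibitor PD0325901 and the GSK3 inhibitor CHIR99021. Both groups were then seeded on fibronectin in N2B27 with activin A, bFGF and knockout serum replacement, so the controls carry the same treatment and time and differ in the label of genotype. The labels do not say how Atg7 was disrupted, whether the KO cells are 1 clone, or whether separate cultures stand behind the libraries of each group. The p-values therefore measure only the spread between these libraries, which may be technical. The remaining 9 libraries (ESCs, and KO and control cells at day 4) helped to estimate the spread. In the fit with a covariate described below they also helped to set its slope. Day 4 serves as a second reading of members described at day 2. Of 24982 genes in the files, 15696 had enough counts to be tested.

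Atg7 encodes the E1-like enzyme of autophagy. It activates the ubiquitin-like proteins ATG12 and ATG8 (the LC3 and GABARAP families) so that ATG12 joins ATG5 and ATG8 is attached to the lipid of the growing autophagosome membrane, which later fuses with the lysosome. ESCs in LIF with both inhibitors resemble the naive epiblast, held by factors such as Nanog, Klf2, Prdm14 and Esrrb. When activin and FGF replace the inhibitors, ERK signalling is released, naive factors are shut down and formative genes such as Otx2, Pou3f1, Dnmt3a and Dnmt3b come on. The title of the study names Nanog degradation by autophagy, which acts on protein; the values below are RNA.

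Atg7 itself (chr6:114643127-114860604, GRCm38, RefSeq annotation) had 6.84, 7.53 and 7.11 CPM in the KO libraries, against 14.6, 12.1 and 14.0 CPM in the control libraries. CPM are counts scaled by library size. The groups did not overlap, and the log2 fold change of KO over control was -0.92 ± 0.11 (SE, edgeR quasi-likelihood adjusted p = 8.34e-06), a ratio of KO to control of 0.529. A disrupted gene can still be transcribed, and the deleted stretch is not known from the labels, so the RNA level does not measure the protein.

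The 6 libraries held between 17425578 and 23371546 counts. Libraries of 1 group differed from each other by more than sampling noise (chi-square per degree of freedom of 3.37 to 6.32 within the KO group and 3.70 to 5.66 within the control group). The ESC libraries, which also enter the estimate of spread, differed more. Their pairs had 5.86 (replicates 1 and 2), 31.8 (1 and 3) and 24.2 (2 and 3). Markers of pluripotent cells were present in both groups, but not all at equal levels. Nanog was higher in KO and Utf1, Dppa4 and Epcam were lower, with values given below. Pou5f1, the core pluripotency factor, averaged 846 ± 28.4 CPM in KO and 856 ± 48.9 CPM in control libraries (SD, n = 3 each). Sall4 averaged 129 ± 4.51 CPM in KO and 105 ± 0.971 CPM in control libraries. The primed marker Fgf5 was at or near 0 in both groups (highest value 0.083 CPM). The naive factor Klf4 averaged 141 ± 16.3 CPM in KO and 120.2 ± 2.85 CPM in control libraries, against 579 ± 65.4 CPM in ESCs. The ESC libraries stand apart in Hprt, the purine salvage gene that the line E14TG2a is known to lack. It had 1.78 ± 0.101 CPM in KO and 2.34 ± 0.152 CPM in control libraries at day 2, against 195 ± 11.2 CPM in ESCs, so ESC levels are given here as context only and were not tested.

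Fibroblast genes differed between the groups and set 1 library apart. Summed over 21 fibroblast markers, the KO libraries held between 587 and 1034 CPM, against 365 to 418 CPM in the control libraries, and no marker was at 0 in either group. Of 20 tested, 7 rose and none fell, among them Col1a1, Col1a2 and Col3a1, collagens of fibroblast matrix. Col1a1 had 156, 268 and 181 CPM in KO libraries, against 92.3, 84.2 and 80.7 CPM in control libraries. The count of risen fibroblast markers was 0 without KO replicate 2, 3 without control replicate 1, 1 without control replicate 2 and 2 without control replicate 3. Their part in the results below was not tested by subtraction; a fit with a collagen score (mean log2 CPM of these 3 collagens) as covariate moved 31 of 104 list counts by over 1.5 times, 17 up and 14 down, and those of the lists below are given with them. In that fit L1td1, Ccnd2, Tfap2a, Dnmt1, Psat1, Mthfd2, Aars and Slc16a3, called below, did not pass. The slope for the score came from differences within groups over all 15 libraries. Scores were 8.93, 7.98 and 5.86 in the ESC libraries, the widest spread of any group. They were 6.51 to 7.49 in KO and 5.41 to 5.69 in control libraries at day 2. Counts from this fit thus lean on the ESC libraries. In bulk RNA, more cells of a type and more RNA per cell cannot be told apart.

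Many genes differed by a small amount between KO and control libraries. At a Benjamini-Hochberg adjusted p of 0.05 in edgeR's quasi-likelihood test, 6556 of 15696 genes changed (41.8%), 3200 higher (20.4%) and 3356 lower (21.4%) in KO. The 3 KO and 3 control values did not overlap for 61.3% of tested genes. The median size of a called change was 0.51 on the log2 scale. At least 1.5-fold changes were reached by 1398 risen and 1422 fallen genes, 2-fold by 568 and 713, 4-fold by 68 and 138, and 8-fold by 11 and 25. The share called was 21.3% among genes under 1 CPM, 39.3% from 1 to 10 CPM, 46.2% from 10 to 100 CPM and 49.6% above. Counts of members in a gene group are therefore read against 20.4% and 21.4% below. The 52 gene lists used here hold 1185 tested genes, and 42 more listed genes had too few counts to test, none of them above 1.28 CPM in a day 2 library. Among these, Rpl26 and Ndufs5 had 0 CPM in all 6 libraries and Eno1 at most 0.11 CPM. How reads were assigned to genes is not known, so such values need not mean that a gene is silent. Without any 1 of the 6 libraries, the genome-wide count was between 5112 and 5626. The fit of only the 6 libraries called 4317 genes higher and 4215 lower of 14964 tested. With the collagen score as covariate 3366 were higher and 3289 lower. The stricter filter (10 CPM in 3 libraries) tested 10577 genes and called 5175, so listed genes under it leave a count untested. A list count from a refit belongs to the background of that refit, not to 20.4% and 21.4%.

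**Figure D1:**
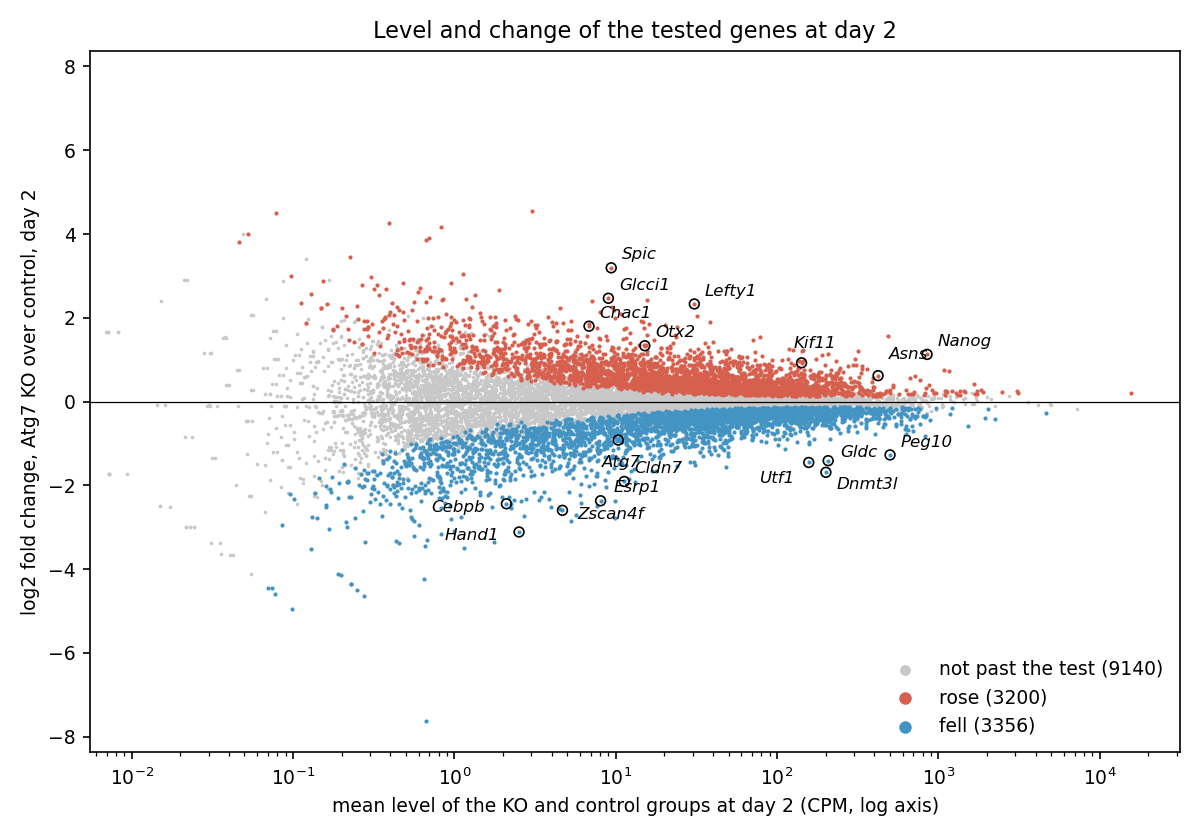
Each point is a tested gene, with its mean level over both groups on the x axis (CPM, log axis) and its log2 fold change of KO over control on the y axis. The 3200 risen genes are red, the 3356 fallen blue and the rest grey, and 6 tested genes with no count at day 2 are not drawn. Of the genes with names, Nanog lies farthest to the right, Spic highest and Hand1 lowest.

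The strongest increases that the naming rule picked held a transcription factor of the naive state, a Nodal antagonist and fibroblast genes. Spic, an ETS-family factor expressed in naive ESCs, had 17.3, 15.1 and 18.3 CPM in KO libraries, against 2.06, 1.94 and 1.56 CPM in control libraries, a log2 fold change of 3.19 ± 0.25 (edgeR adjusted p = 2.19e-07). All 3 KO libraries stood far above the controls, and ESCs had 8.35 ± 2.03 CPM. Lefty1, a secreted inhibitor of Nodal and a target of the same pathway, had 67.3, 38.7 and 47.8 CPM in KO libraries, against 11.2, 6.99 and 12.3 CPM in control libraries (2.33 ± 0.24). Its KO values spread widely but stayed clear of the controls. Glcci1, a glucocorticoid-induced transcript, had a log2 fold change of 2.47 ± 0.23, Rasgrp1, an exchange factor that activates RAS, 2.13 ± 0.18, and Ifitm1, an interferon-induced membrane protein also known from germ cell precursors, 2.04 ± 0.12. Dusp27, an atypical phosphatase of the dual-specificity family, reached 2.08, and the chemokine Ccl7 2.01, which did not pass with the collagen score as covariate. Sall3 and Cidea, at 2.40 and 2.27, lie on chromosome 18, described below. Mmp3, Lum and Thbs2, all fibroblast matrix genes, are also among the 12 by size, at 4.55, 2.23 and 1.99. None of the 3 passed without KO replicate 2 or with the collagen score as covariate. Mmp3 and Thbs2 also missed without control replicate 2, Mmp3 without control replicate 3, and Lum without any 1 control library or without KO replicate 3.

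The 12 largest decreases under the naming rule (at least 5 CPM in the mean of a group and no overlap) included 2-cell-like and epithelial genes; genes at lower levels, such as Hand1 described below, fell further. Zscan4f, Usp17lb, Usp17lc and Usp17le, of families that ESCs express in rare 2-cell-like cells, had log2 fold changes of -2.60, -2.42, -2.34 and -2.03; their near-identical copies make each single value uncertain. Esrp1, the epithelial splicing regulator, had 1.88, 3.12 and 2.79 CPM in KO libraries, against 13.8, 11.9 and 14.9 CPM in control libraries (-2.37 ± 0.28, edgeR adjusted p = 7.60e-06). The groups were far apart, with each control library at several times any KO library. Cdcp1, a transmembrane protein of epithelial cells, fell with a log2 fold change of -2.52 ± 0.25, Galnt3, which starts O-linked sugar chains, with -2.36 ± 0.22, and Crb3, a member of the apical polarity complex, with -2.34 ± 0.23. Ret, a receptor tyrosine kinase, stood at -2.27 ± 0.31, Wnt7b, a WNT ligand, at -2.02 ± 0.31 and Pllp, the membrane protein plasmolipin, at -2.15 ± 0.24. Hspa1a, the inducible HSP70, stood at -2.15 ± 0.24, with its copy Hspa1b making the split of reads uncertain.

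Ranked by p instead of size, the leading changes were moderate in fold and tight among libraries. Spp1, the secreted protein osteopontin, had 717, 759 and 705 CPM in KO libraries, against 247, 244 and 241 CPM in control libraries (1.57 ± 0.08). The other 5 risen genes of that ranking, Kif20a, Galnt1, Pias2, Npc1 and Osbpl1a, all lie on chromosome 18. The fallen genes were led by Cdkl2, a CDC2-like kinase, with 5.45, 6.66 and 6.04 CPM in KO libraries, against 16.6, 17.5 and 17.4 CPM in control libraries (-1.50 ± 0.10). Its 3 control libraries lay close together and far above KO. Chka, which makes phosphocholine for membrane lipids, had 62.1, 65.0 and 63.1 CPM in KO libraries, against 111, 109 and 109 CPM in control libraries (-0.79 ± 0.06), Clu, a secreted chaperone, 16.4 ± 1.86 CPM in KO and 45.0 ± 1.91 CPM in control libraries (-1.45 ± 0.11), and Morc4 20.0 ± 0.941 CPM in KO and 49.1 ± 1.52 CPM in control libraries (-1.30 ± 0.09). Sult4a1, a sulfotransferase-family gene of the brain, and Nptx2, a neuronal pentraxin, fell with log2 fold changes of -1.51 ± 0.11 and -1.24 ± 0.09.

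**Figure D2:**
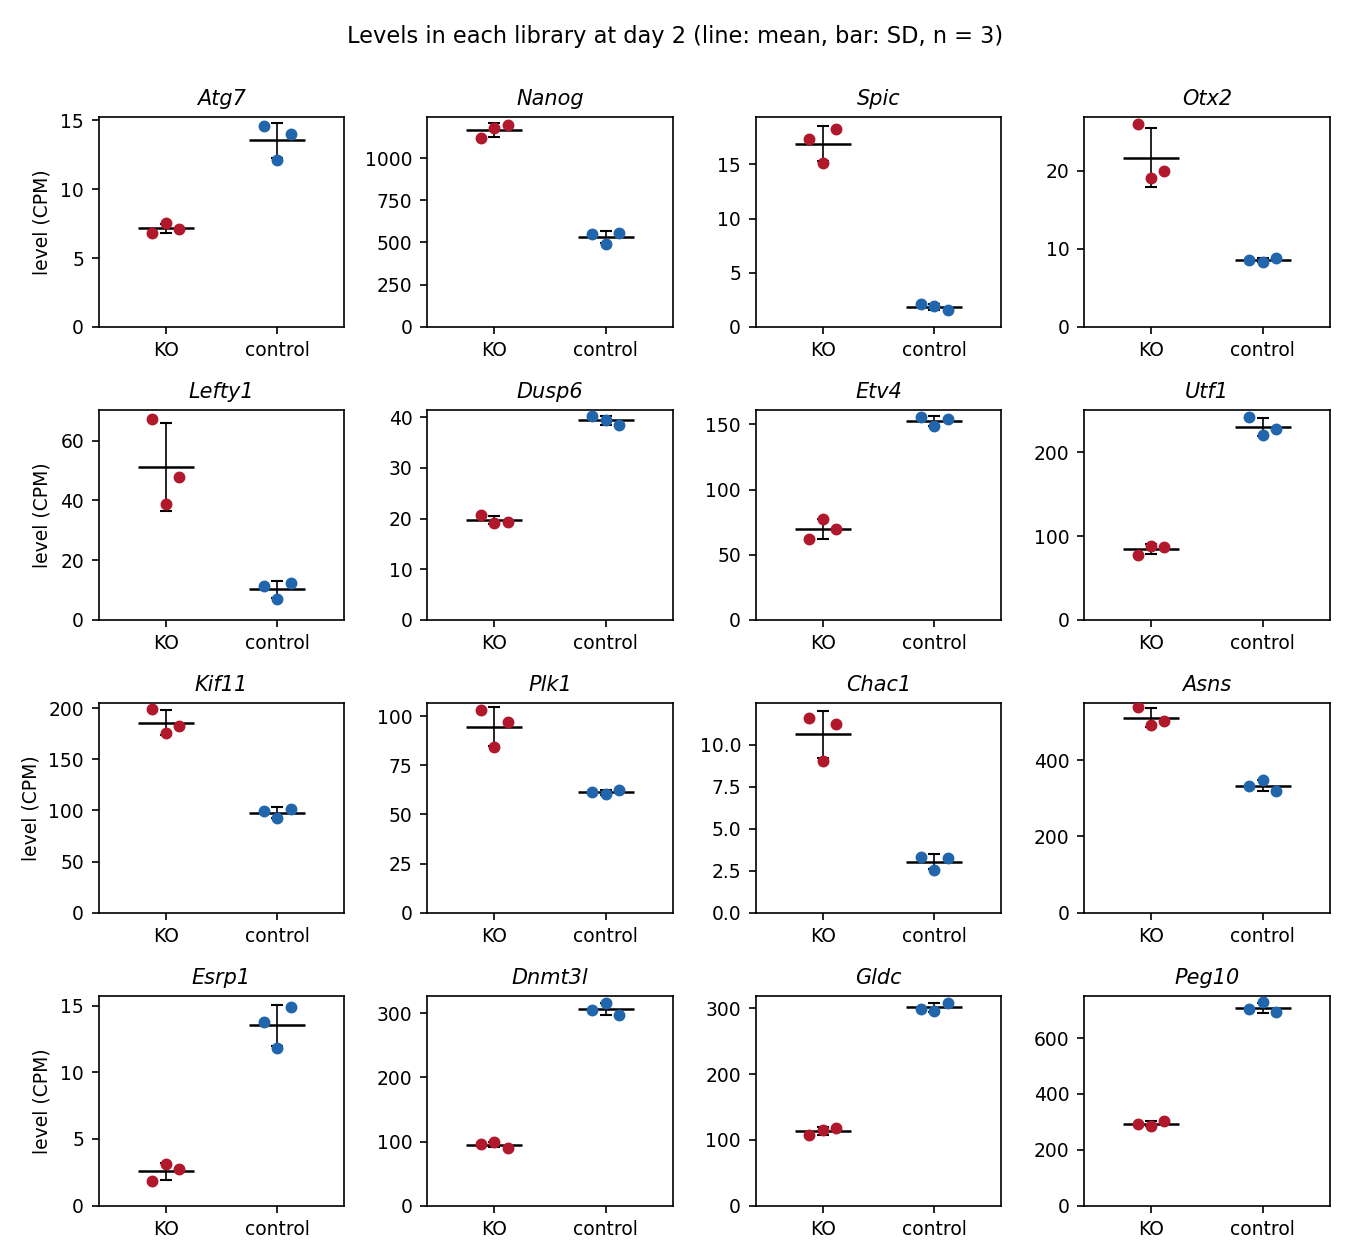
Levels (CPM, linear axes from 0) of 16 genes in the 3 KO libraries (left, red) and the 3 control libraries (right, blue) of day 2, with the mean as a line and the SD as a bar. In all 16 panels the KO and control points do not overlap.

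Genes of chromosome 18 stood higher in KO along the whole chromosome. Of its 408 tested genes 259 rose (63.5%) and 10 fell, and their median log2 fold change was 0.56, or 1.48-fold, while 86.5% lay above 0. The 18 other autosomes had medians between -0.08 and 0.08 and between 13.5% and 28.2% of genes risen. In windows of 10 Mb with at least 20 tested genes, the median lay between 0.49 and 0.69. Against the mean of the day 2 controls on a log2(CPM + 1) scale, the median chromosome 18 gene stood at 0.48, 0.46 and 0.46 in the KO libraries of day 2. At day 4 the same quantity was 0.31 to 0.34 in KO and 0.29 in each control library, and in ESCs it was 0.03 to 0.09. So the control libraries of day 4 also stood above the controls of day 2. At day 4 the median KO-over-control log2 fold change of chromosome 18 was 0.01, with 90 genes higher and 63 lower in KO. The shift at day 4 was not particular to this chromosome. Chromosome 6 genes stood at 0.29 to 0.32 in control and 0.22 to 0.24 in KO libraries of day 4, but at 0.06 to 0.09 in KO libraries of day 2. Genes on the X chromosome had a median of -0.10, and 7 of 8 tested Y-linked genes rose (median 0.80), where Ddx3y, an RNA helicase, averaged 53.9 ± 0.452 CPM in KO and 33.4 ± 1.52 CPM in control libraries. Copy number was not measured, and the cause was not tested. Dropping chromosome 18 changed 39 of 104 list counts, 29 of them by 1 gene, and the 10 that changed by more are given with their lists. Genome-wide that fit called 3092 genes higher and 3145 lower, against 3200 and 3356 with the chromosome. As only 10 of its genes fell, most fallen calls lost in that fit lie on other chromosomes. Scaling and spread were estimated again there, so a lower list count need not mean members on chromosome 18.

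**Figure D3:**
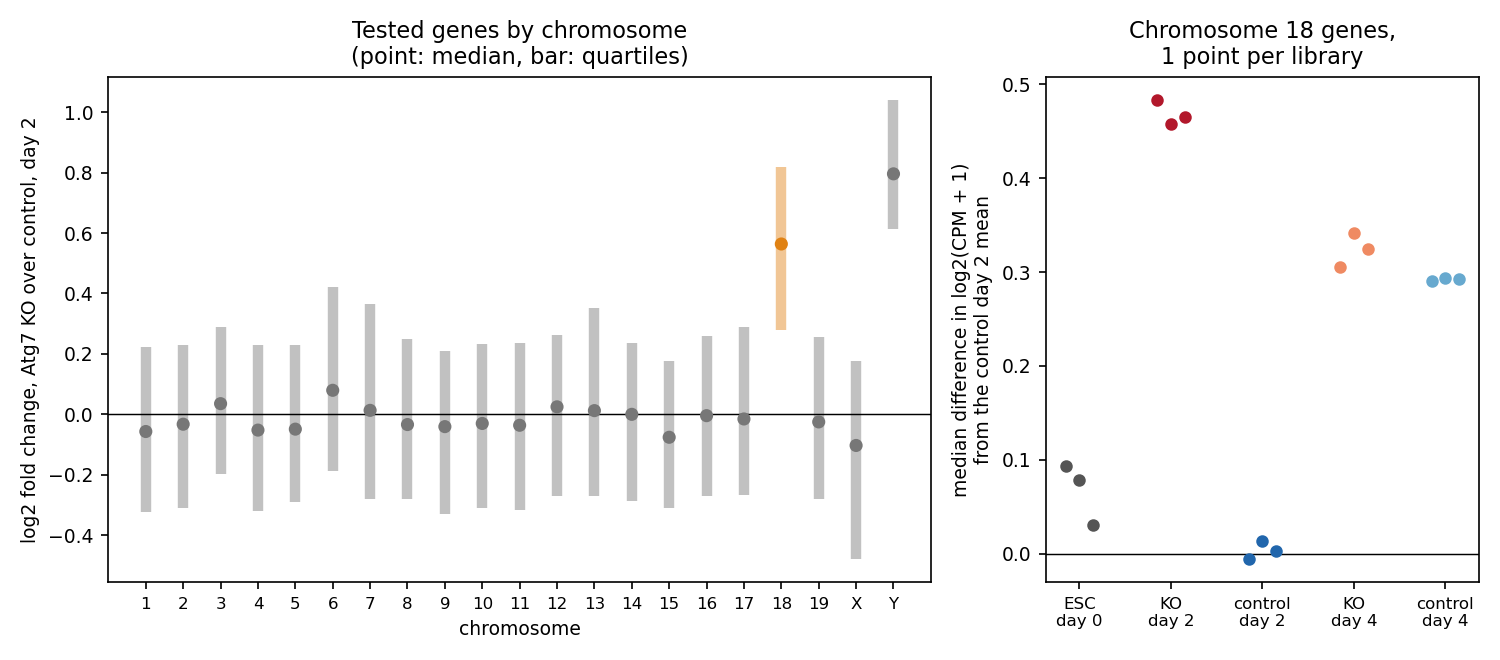
Left, the median (point) and the span between the quartiles (bar) of the log2 fold change of KO over control at day 2 for the tested genes of each chromosome; chromosome 18 (orange, median 0.56) stands above the other autosomes. Right, for each library the median over chromosome 18 genes of the difference in log2(CPM + 1) from the control day 2 mean, with KO libraries of day 2 at 0.46 to 0.48 and control libraries of day 4 at 0.29.

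Naive pluripotency genes were split, with Nanog among those that rose. Of 20 tested naive genes 10 rose (50%) and 3 fell (15.0%), with a median log2 fold change of 0.21, against -0.01 for all tested genes; 9 rose when chromosome 18 was dropped, and 7 fell with the collagen score as covariate, with 10 risen. Nanog, the homeodomain factor named in the study's title, had 1121, 1181 and 1198 CPM in KO libraries, against 551, 493 and 558 CPM in control libraries. The KO values were close to each other and over 2-fold the controls (2.18-fold, log2 1.13 ± 0.10, edgeR adjusted p = 5.08e-07), and ESCs had 1220.5 ± 188 CPM. Prdm14, a repressor that keeps FGF receptors and methyltransferases low in the naive state, had 43.8, 43.5 and 46.0 CPM in KO libraries, against 20.5, 21.3 and 23.0 CPM in control libraries (1.04 ± 0.18). Klf2, a target of ERK-driven protein loss, had 96.7 ± 11.4 CPM in KO and 52.7 ± 8.49 CPM in control libraries (0.87 ± 0.12), and Nr5a2, a nuclear receptor, 55.0 ± 2.73 CPM in KO and 34.0 ± 3.35 CPM in control libraries (0.69 ± 0.09). Smaller increases were found for Fgf4, Zfp42 and Tcl1, at 0.48, 0.36 and 0.29. Other naive factors did not pass. Esrrb, an orphan nuclear receptor, averaged 214 ± 17.7 CPM in KO and 218 ± 8.72 CPM in control libraries (-0.03 ± 0.07), Tbx3 304 ± 9.22 CPM in KO and 318 ± 3.71 CPM in control libraries (-0.07 ± 0.06), and Klf4 had a log2 fold change of 0.23 ± 0.10 (edgeR adjusted p = 0.0799). The fallen members were Zfp57, which keeps imprints methylated (-0.77 ± 0.09), Dppa3, a factor that protects against methylation (-0.51 ± 0.14), and Klf5 (-0.37 ± 0.13, past the test in only 1 of the 6 refits that leave out a library, the one without KO replicate 3).

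Genes shared by naive and primed pluripotent cells moved both ways. Of 16 tested, 6 rose (37.5%) and 5 fell (31.3%), and 8 fell with the collagen score as covariate. Utf1, a chromatin factor of pluripotent cells, had 77.2, 88.1 and 86.6 CPM in KO libraries, against 242, 220.4 and 228 CPM in control libraries (-1.45 ± 0.16, edgeR adjusted p = 4.57e-06). This was the deepest fall of the list. Epcam, the epithelial adhesion molecule used as a pluripotency marker, had 107 ± 3.88 CPM in KO and 209.7 ± 6.76 CPM in control libraries (-0.97 ± 0.10), and Dppa4 115 ± 6.64 CPM in KO and 191 ± 6.88 CPM in control libraries (-0.73 ± 0.07). Among the risen, L1td1, an RNA-binding protein, stood at 0.77 ± 0.20, Sall1 at 0.64 ± 0.11 and Gdf3, a TGF-beta family ligand, at 0.85 ± 0.12. Lin28a, which blocks let-7 maturation, had 149 ± 7.24 CPM in KO and 150.3 ± 3.96 CPM in control libraries and did not pass.

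Nanog RNA changed, so the RefSeq sequence around its transcription start (GRCm38.p6, chr6:122707239-122707538, plus strand) is shown. Capitals mark the composite motif to which OCT4 and SOX2 are known to bind side by side, searched as TTTGCAT, 1 base of any kind and ACAATG. A match on either strand was found for 1 of 13 naive members with a promoter, and for this gene alone among 12143 tested genes with one. It is a match of letters, not a measured site. The string is long and no mismatch was allowed, so few matches could be found in any set of promoters. The count therefore cannot tie the motif to naive genes or to the rise of Nanog.
Nanog: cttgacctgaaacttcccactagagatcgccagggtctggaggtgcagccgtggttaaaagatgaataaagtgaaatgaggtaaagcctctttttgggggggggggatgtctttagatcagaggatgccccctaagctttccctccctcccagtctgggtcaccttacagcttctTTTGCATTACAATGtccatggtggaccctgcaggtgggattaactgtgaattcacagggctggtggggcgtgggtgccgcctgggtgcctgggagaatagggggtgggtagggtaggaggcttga

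Formative genes did not move as a block. Of 19 tested, 4 rose (21.1%) and 9 fell (47.4%), and 2 rose without control replicate 2. Otx2, the factor that redirects OCT4 to new enhancers, had 21.7 ± 3.77 CPM in KO and 8.59 ± 0.227 CPM in control libraries (1.33 ± 0.16). All KO values were at least 2-fold the highest control value. Pou3f1, a POU factor that also comes on early, moved the other way, with 1.73, 2.25 and 2.23 CPM in KO libraries, against 6.70, 5.43 and 6.91 CPM in control libraries (-1.61 ± 0.25). Grhl2, which opens epithelial enhancers, had 20.1 ± 1.02 CPM in KO and 37.6 ± 1.08 CPM in control libraries (-0.90 ± 0.10). Zic2 had 45.4 ± 3.48 CPM in KO and 40.0 ± 4.38 CPM in control libraries and did not pass.

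The DNA methyltransferase genes fell. Of 15 tested genes 7 fell (46.7%) and 4 rose, 2 of the risen being on chromosome 18 (Mbd1 and Mbd2, methyl-CpG binding proteins), so 2 rose without it. Dnmt3l, the cofactor that stimulates de novo methylation, had 96.0, 98.6 and 90.6 CPM in KO libraries, against 306, 316 and 297 CPM in control libraries (-1.69 ± 0.18, edgeR adjusted p = 3.15e-06). The 3 KO values lay close together and far below the controls. Dnmt3b, a de novo methyltransferase, had 70.1 ± 2.20 CPM in KO and 120.1 ± 1.28 CPM in control libraries (-0.78 ± 0.20). Dnmt3a had 161 ± 12.1 CPM in KO and 202 ± 4.57 CPM in control libraries (-0.33 ± 0.08), and the maintenance enzyme Dnmt1 419.8 ± 4.04 CPM in KO and 489.9 ± 2.91 CPM in control libraries (-0.22 ± 0.07). Tet3, which oxidises methylcytosine, rose (0.71 ± 0.12). Polycomb and histone lysine methylation genes were closer to the background, with 6 of 26 higher (23.1%) and 3 lower (11.5%), or 5 lower with the collagen score. The fit of only the 6 libraries gave 11 higher and 6 lower, where 4317 and 4215 of all 14964 tested genes were called.

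Genes of the signalling pathways that drive the transition changed in both directions. In the Nodal and activin pathway 10 of 20 genes rose (50%) and 3 fell, with a median log2 fold change of 0.29; 5 fell with the collagen score. Among targets, Skil, a feedback repressor of SMADs, had 139 ± 14.9 CPM in KO and 95.8 ± 4.19 CPM in control libraries (0.54 ± 0.11). The transducer Smad3 rose (0.53 ± 0.08) and the receptor Acvr2b rose (0.30 ± 0.06). The ligand Nodal itself had 114 ± 6.60 CPM in KO and 93.3 ± 9.02 CPM in control libraries (0.28 ± 0.09) and did not pass without control replicate 1, control replicate 2 or KO replicate 1. The coreceptor Tdgf1 (Cripto) fell (-0.55 ± 0.15), as did the SMAD partner Foxh1 (-0.40 ± 0.09).

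More genes of the FGF pathway and of its ERK-driven feedback fell than rose. Of 24 tested 10 fell (41.7%) and 2 rose (8.33%), with a median of -0.44, and 16 fell with the collagen score as covariate. Etv4, an ETS factor induced by ERK, had 62.2, 77.5 and 69.9 CPM in KO libraries, against 155, 148 and 154 CPM in control libraries (-1.13 ± 0.18, edgeR adjusted p = 1.35e-04). Dusp6, the phosphatase that switches ERK off and is its direct target, had 20.6, 19.2 and 19.3 CPM in KO libraries, against 40.3, 39.5 and 38.5 CPM in control libraries (a ratio of KO to control of 0.499, edgeR adjusted p = 5.99e-04). In both genes the KO libraries lay far below every control library. Spry1, a feedback inhibitor, fell (-0.72 ± 0.12), as did Dusp4 (-0.50 ± 0.09), Dusp5 (-1.03 ± 0.14), Fgfr1, the main FGF receptor of the epiblast (-0.48 ± 0.06), and Fgfr3 (-0.90 ± 0.17). The ligand Fgf4 and Etv5, close in sequence to Etv4, rose (0.48 ± 0.08 and 0.43 ± 0.09). The ligand Fgf8 had 0.765 ± 0.348 CPM in KO and 3.07 ± 0.0845 CPM in control libraries (-1.99 ± 0.30). Immediate early genes, also driven by ERK, had 6 of 19 lower (31.6%) and none higher, among them Fos (-1.42 ± 0.29), Nr4a1 (-0.61 ± 0.18) and Dusp1 (-0.70 ± 0.21). With the collagen score as covariate 10 fell.

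In the Wnt pathway 11 of 22 genes fell (50%) and 4 rose, with a median of -0.45; the stricter filter left 7 fallen and 2 risen. The fallen included ligands and their processing enzyme: Wnt7b (above), Wnt4 with 0.533 ± 0.0984 CPM in KO and 2.04 ± 0.254 CPM in control libraries (-1.93 ± 0.33), and Porcn, which acylates WNT proteins (-0.58 ± 0.13). The repressor Tcf7l1, which restrains naive genes in ESCs, had 37.1, 34.0 and 39.0 CPM in KO libraries, against 60.5, 59.1 and 61.1 CPM in control libraries (-0.72 ± 0.09). Its groups were well apart. The secreted inhibitor Dkk1 rose, with 3.77, 2.83 and 3.26 CPM in KO libraries, against 0.502, 0.614 and 0.432 CPM in control libraries (2.65 ± 0.39), and Ccnd1, cyclin D1, rose (0.89 ± 0.10). Of the LIF and STAT3 pathway 4 of 11 fell (36.4%), among them Stat3 (-0.38 ± 0.07) and the kinase Pim1, with 182 ± 9.32 CPM in KO and 308 ± 20.6 CPM in control libraries (-0.76 ± 0.10), while the ligand Lif rose (0.61 ± 0.15). In the BMP pathway 3 of 19 rose and 4 fell; the fallen were 7 with the collagen score, 8 in the fit of only the 6 libraries and 2 with the stricter filter. Id2, an inhibitor of differentiation factors, had 23.5, 27.2 and 24.8 CPM in KO libraries, against 63.6, 60.5 and 57.7 CPM in control libraries (-1.27 ± 0.11).

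Epithelial and trophoblast genes were lower in KO. Of 33 tested genes of epithelial adhesion and splicing 20 fell (60.6%) and 3 rose, with a median of -0.44; 1 rose when chromosome 18, which holds the desmosomal cadherins Dsg2 and Dsc2, was dropped, and 1 without control replicate 2 or KO replicate 1. Cldn7, a tight junction claudin, had 4.75 ± 0.662 CPM in KO and 17.8 ± 1.15 CPM in control libraries (-1.91 ± 0.21). Spint2, an inhibitor of membrane serine proteases, had 94.2, 109.5 and 110.4 CPM in KO libraries, against 215, 215 and 201 CPM in control libraries (-1.01 ± 0.08), with no overlap. Cdh1, E-cadherin, fell less, with 521 ± 19.7 CPM in KO and 643 ± 31.7 CPM in control libraries (-0.30 ± 0.05). Among mesenchymal regulators 3 of 18 rose and 2 fell, but 8 fell with the collagen score and 1 without KO replicate 1. Zeb1, a repressor of epithelial genes on chromosome 18, had 53.1 ± 1.48 CPM in KO and 21.7 ± 2.24 CPM in control libraries (1.29 ± 0.08). Vim and Fn1 did not pass (0.37 and -0.05).

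Of 15 tested trophoblast genes 11 fell (73.3%) and 2 rose (1 with the collagen score or the stricter filter), with a median of -0.82, and their summed level was 239 to 246 CPM in KO and 324 to 334 CPM in control libraries. The simple-epithelium keratins fell together: Krt8 had 33.3, 30.8 and 33.6 CPM in KO libraries, against 68.2, 60.5 and 64.9 CPM in control libraries (-0.99 ± 0.11), and its partner Krt18 38.3, 32.6 and 37.4 CPM in KO libraries, against 69.3, 66.3 and 65.7 CPM in control libraries (-0.89 ± 0.12). Hand1, a factor of trophoblast and mesoderm, had 0.347, 0.791 and 0.386 CPM in KO libraries, against 5.52, 4.20 and 3.85 CPM in control libraries (-3.11 ± 0.43). Gata3, a trophoblast factor, fell (-0.89 ± 0.15), while Tfap2c and Tfap2a, which also act in germ cells and ectoderm, rose (0.62 ± 0.12 and 0.98 ± 0.25).

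Genes of other lineages moved both ways. Of 11 tested primitive streak and mesoderm genes 5 fell (45.5%) and 2 rose; the fallen were 1 with the stricter filter, and the risen were 0 with that filter, with the collagen score or without control replicate 2, and 1 without each of the other libraries. Mesp2 averaged 4.04 ± 1.06 CPM in KO and 8.01 ± 0.855 CPM in control libraries (-0.98 ± 0.22). Of 11 neural genes 4 rose (36.4%) and 3 fell. Sox1, the early neural factor, had 5.35, 5.83 and 6.13 CPM in KO libraries, against 1.67, 2.08 and 2.46 CPM in control libraries (1.46 ± 0.19), and Nes, a neural progenitor filament, 15.7 ± 1.31 CPM in KO and 8.12 ± 0.941 CPM in control libraries (0.95 ± 0.13), whereas Sox11 fell (-0.87 ± 0.11). Of 17 endoderm genes, summed to 1428 to 1470 CPM in KO and 1220 to 1404 CPM in control libraries over all 19 listed, 7 rose (41.2%) and 2 fell. The fallen were 1 with the collagen score, and the risen were 3 without control replicate 1 and 4 without control replicate 2, control replicate 3, KO replicate 1 or KO replicate 3. Cubn, an endocytic receptor of visceral endoderm, had 43.4, 22.7 and 27.5 CPM in KO libraries, against 12.4, 14.1 and 10.8 CPM in control libraries (1.32 ± 0.27) and passed in each of these refits.

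Most mitotic genes rose, and more replication genes fell than rose. Of 28 tested genes of G2 and M phase 22 rose (78.6%) and none fell, with a median of 0.41; 20 rose when chromosome 18 was dropped. Kif11, the motor that separates spindle poles, had 199, 176 and 182 CPM in KO libraries, against 99.8, 92.1 and 102 CPM in control libraries (0.93 ± 0.06, edgeR adjusted p = 2.95e-08). Every KO value was over 1.5-fold every control value. Aurka, a spindle kinase, had 98.5, 90.6 and 92.6 CPM in KO libraries, against 54.9, 55.1 and 54.0 CPM in control libraries (0.78 ± 0.07), and Plk1, the kinase of mitotic entry, 103, 84.1 and 96.9 CPM in KO libraries, against 61.2, 60.2 and 62.6 CPM in control libraries (0.63 ± 0.07). Ccnb1, cyclin B1, rose by less than Kif11 (0.68 ± 0.06), as did Mki67, the proliferation marker (0.54 ± 0.08), and Top2a (0.40 ± 0.05). Cdk1 had 197 ± 3.70 CPM in KO and 193 ± 2.88 CPM in control libraries and did not pass.

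Of 40 genes of S phase and replication 18 fell (45.0%) and 2 rose (1 with the collagen score or without control replicate 2, control replicate 3, KO replicate 1 or KO replicate 3), with a median of -0.14. Rrm2, the regulated subunit of ribonucleotide reductase, had 262, 309.8 and 281 CPM in KO libraries, against 421, 436 and 420.0 CPM in control libraries (-0.58 ± 0.07). Ung, which removes uracil from DNA, had 119.9 ± 9.70 CPM in KO and 182 ± 8.16 CPM in control libraries (-0.60 ± 0.06), and Gins2, of the replicative helicase, fell (-0.42 ± 0.07). Among cyclins and inhibitors of G1, 5 of 24 rose (20.8%) and 8 fell (33.3%). Ccne1, cyclin E1, had 78.2, 96.2 and 94.6 CPM in KO libraries, against 162, 145 and 159 CPM in control libraries (-0.79 ± 0.12), and Ccnd2, cyclin D2, 27.6, 31.3 and 29.6 CPM in KO libraries, against 12.9, 12.1 and 11.2 CPM in control libraries (1.29 ± 0.38). Cyclins E1 and D2 thus moved in opposite directions, and cyclin D3 (Ccnd3) fell as well (-0.63 ± 0.07). Mycn rose (1.00 ± 0.11), and the inhibitors Cdkn1b and Cdkn1c moved apart, at 0.87 ± 0.10 and -1.31 ± 0.13.

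Mitotic promoters often carry a cell cycle homology region, TTTGAA, and CCAAT boxes, so 3 promoters of the risen genes are shown from RefSeq (GRCm38.p6) with matches to both on either strand in capitals; the 2 motifs do not overlap in them. Of 23 G2 and M phase members with a promoter, 17 hold TTTGAA (73.9%), against 14.3% of all 12143 tested genes with one, and 20 hold CCAAT (87.0%), against 43.1%. Of the 17 with TTTGAA 13 rose, and of the 6 without it 4 rose. Kif11 lies at chr19:37376132-37376431, plus strand, Plk1 at chr7:122159185-122159484, plus strand, and Aurka at chr2:172370521-172370820, minus strand.
Kif11: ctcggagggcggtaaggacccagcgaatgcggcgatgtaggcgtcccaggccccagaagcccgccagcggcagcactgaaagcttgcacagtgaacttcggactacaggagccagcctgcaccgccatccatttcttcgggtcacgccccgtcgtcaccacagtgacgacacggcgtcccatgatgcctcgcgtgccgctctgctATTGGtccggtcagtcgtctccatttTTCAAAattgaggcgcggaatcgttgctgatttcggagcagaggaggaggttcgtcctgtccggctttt
Plk1: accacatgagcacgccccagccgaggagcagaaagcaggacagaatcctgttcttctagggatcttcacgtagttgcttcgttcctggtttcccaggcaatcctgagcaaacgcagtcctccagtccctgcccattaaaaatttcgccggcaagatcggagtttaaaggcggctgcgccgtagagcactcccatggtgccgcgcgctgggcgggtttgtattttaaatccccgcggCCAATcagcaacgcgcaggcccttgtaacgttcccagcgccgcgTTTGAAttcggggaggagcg
Aurka: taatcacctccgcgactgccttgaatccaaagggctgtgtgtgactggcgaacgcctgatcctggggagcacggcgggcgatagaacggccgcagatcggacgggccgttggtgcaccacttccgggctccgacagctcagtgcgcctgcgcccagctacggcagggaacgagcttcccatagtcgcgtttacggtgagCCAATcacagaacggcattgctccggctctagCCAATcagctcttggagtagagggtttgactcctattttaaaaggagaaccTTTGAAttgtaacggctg

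**Figure D4:**
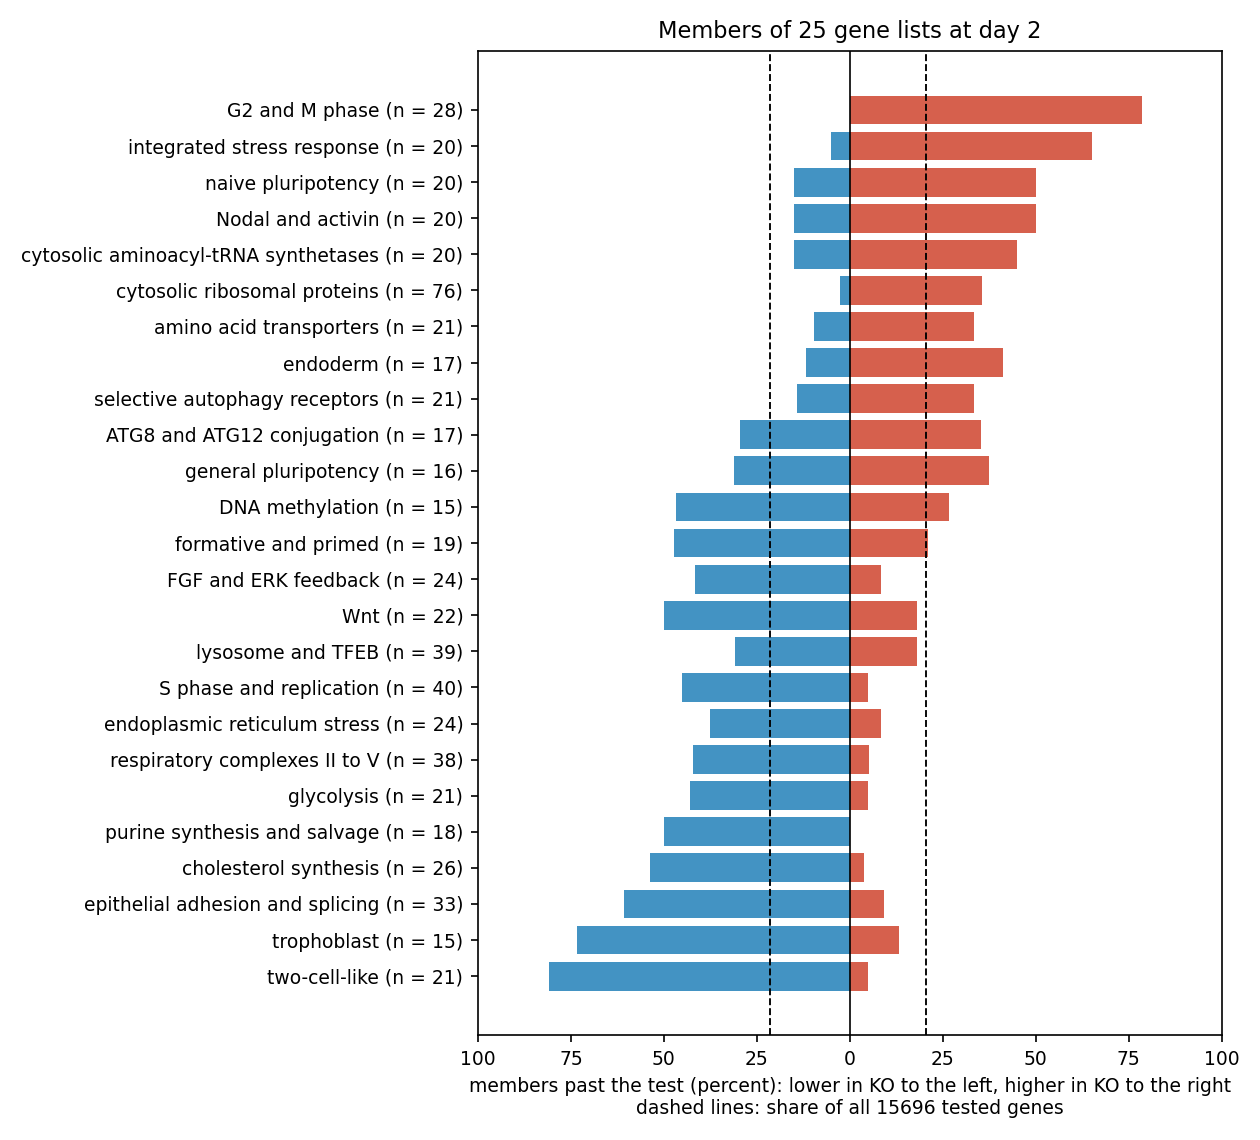
Share of the tested members of 25 gene lists (y axis, number tested in brackets) that fell in KO (blue, to the left) or rose in KO (red, to the right) at day 2, in percent. Dashed lines mark the shares among all 15696 tested genes, 21.4% lower and 20.4% higher; G2 and M phase (78.6% higher) and the 2-cell-like list (81.0% lower) lie farthest out.

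Targets of the integrated stress response, which the factor ATF4 drives when amino acids run short or the kinases of eIF2 are active, rose. Of 20 tested 13 rose (65.0%) and 1 fell (2 without control replicate 3 or KO replicate 2), with a median of 0.33. Atf4 itself had 174, 173 and 172 CPM in KO libraries, against 93.7, 113 and 91.3 CPM in control libraries (0.80 ± 0.12, edgeR adjusted p = 7.85e-05), and ESCs had 522 ± 101 CPM. Chac1, which degrades glutathione, had 11.6, 9.03 and 11.2 CPM in KO libraries, against 3.29, 2.55 and 3.28 CPM in control libraries (1.80 ± 0.29). Asns, asparagine synthetase, had 539, 494 and 503 CPM in KO libraries, against 332, 348 and 319.5 CPM in control libraries (0.62 ± 0.09), and Nupr1, a stress-induced nuclear protein, 21.7, 25.5 and 22.8 CPM in KO libraries, against 7.53, 9.07 and 6.78 CPM in control libraries (1.58 ± 0.17). None of these 4 overlapped between groups. Cebpb, a partner of ATF4 in heterodimers, was the member that fell, with 0.595, 0.541 and 0.814 CPM in KO libraries, against 3.68, 2.22 and 4.75 CPM in control libraries (-2.44 ± 0.53). Ddit3 (CHOP), the pro-apoptotic factor downstream of ATF4, had 24.7 ± 4.25 CPM in KO and 34.2 ± 9.28 CPM in control libraries (-0.47 ± 0.20) and did not pass.

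ATF4 with a C/EBP partner binds a composite element, searched here as TGATGNAA on both strands. It lay in the promoter of 6 of 19 stress response members with one (31.6%), against 2.87% of all 12143 tested genes with one, and 4 of the 6 rose. The promoters of Chac1 (GRCm38.p6, chr2:119350992-119351291, plus strand), Asns (chr6:7693160-7693459, minus strand) and Nupr1 (chr7:126625421-126625720, minus strand) are shown with the matches in capitals, since all 3 genes rose; 8 of the 13 members without a match rose as well.
Chac1: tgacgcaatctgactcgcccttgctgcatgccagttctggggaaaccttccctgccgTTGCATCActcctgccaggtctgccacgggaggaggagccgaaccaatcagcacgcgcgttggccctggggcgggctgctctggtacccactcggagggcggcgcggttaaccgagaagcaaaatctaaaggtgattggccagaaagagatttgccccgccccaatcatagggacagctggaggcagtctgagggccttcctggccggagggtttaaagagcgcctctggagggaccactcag
Asns: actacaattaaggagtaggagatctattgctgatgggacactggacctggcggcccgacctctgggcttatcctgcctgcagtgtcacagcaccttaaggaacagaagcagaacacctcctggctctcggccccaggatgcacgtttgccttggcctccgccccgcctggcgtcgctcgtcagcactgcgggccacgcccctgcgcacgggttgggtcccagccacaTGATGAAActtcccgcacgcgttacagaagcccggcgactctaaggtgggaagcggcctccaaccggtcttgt
Nupr1: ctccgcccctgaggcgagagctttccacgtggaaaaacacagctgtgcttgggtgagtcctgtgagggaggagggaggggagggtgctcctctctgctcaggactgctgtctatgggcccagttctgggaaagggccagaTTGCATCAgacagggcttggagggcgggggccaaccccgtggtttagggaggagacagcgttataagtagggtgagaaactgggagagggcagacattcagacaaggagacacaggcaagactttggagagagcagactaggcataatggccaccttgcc

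The amino acid genes downstream of ATF4 rose in part. Of 21 amino acid transporters 7 rose (33.3%) and 2 fell, the fallen being 1 in 5 of the 6 refits without 1 library (2 without control replicate 3). Slc38a2 (SNAT2), the adaptive transporter of neutral amino acids, had 351, 264 and 310.1 CPM in KO libraries, against 154, 162 and 155 CPM in control libraries (0.97 ± 0.09), and Slc1a4 71.1 ± 9.10 CPM in KO and 36.6 ± 2.33 CPM in control libraries (0.96 ± 0.12). Slc7a11, the cystine transporter, had 0.522 ± 0.22 CPM in KO and 0.485 ± 0.0463 CPM in control libraries and did not pass. Of 20 cytosolic aminoacyl-tRNA synthetases 9 rose (45.0%) and 3 fell, but Nars, Lars and Hars lie on chromosome 18, without which 6 rose; the fallen were 5 with the collagen score and 1 without control replicate 2. Aars, for alanine, stood at 0.26 ± 0.07. In serine and one-carbon metabolism 6 of 20 rose and 5 fell, and with the collagen score as covariate 2 rose and 8 fell. Psat1 and Mthfd2, of serine synthesis and the mitochondrial folate cycle, rose (0.42 ± 0.11 and 0.40 ± 0.11). Gldc, the glycine cleavage enzyme high in ESCs, had 107, 116 and 118 CPM in KO libraries, against 299, 297 and 309 CPM in control libraries (-1.41 ± 0.13, edgeR adjusted p = 6.26e-07). The KO values lay far below all controls.

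The chaperone branch of endoplasmic reticulum stress did not rise with ATF4 targets. Of 24 tested genes 9 fell (37.5%), or 7 without chromosome 18, and 2 rose. Hspa5 (BiP), the main chaperone of the compartment, had 325, 398 and 332 CPM in KO libraries, against 488, 561 and 443 CPM in control libraries (-0.50 ± 0.11), and Sdf2l1 23.7 ± 1.93 CPM in KO and 47.3 ± 2.92 CPM in control libraries (-0.99 ± 0.10). The stress sensor Ern1 fell (-0.65 ± 0.08), while Xbp1, whose RNA it splices, rose (0.36 ± 0.07).

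Autophagy genes other than Atg7 showed both directions. Of 17 tested genes of ATG8 and ATG12 conjugation 6 rose (35.3%) and 5 fell (29.4%). Map1lc3a, an ATG8 protein, had 23.9, 30.9 and 37.5 CPM in KO libraries, against 65.9, 49.9 and 67.7 CPM in control libraries (-0.99 ± 0.19), beside -0.92 for Atg7. Atg3, the E2-like enzyme that takes ATG8 from ATG7, fell (-0.41 ± 0.11), and so did Gabarapl2 (-0.26 ± 0.07). Atg12 lies on chromosome 18 and rose (0.63 ± 0.06), and the protease Atg4b rose (0.28 ± 0.06). Atg5 had 69.7 ± 4.83 CPM in KO and 67.6 ± 2.00 CPM in control libraries and did not pass. Among 21 genes of initiation and lipid supply 4 rose and 3 fell, with Uvrag, of the lipid kinase complex, lower (-0.53 ± 0.08); 2 rose without control replicate 1, control replicate 3 or KO replicate 3, and 1 fell with the collagen score or without control replicate 2.

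Cargo receptors, which hold cargo to ATG8 and are themselves degraded by autophagy, rose in 7 of 21 cases (33.3%) and fell in 3, or in 1 without control replicate 2 or KO replicate 1. Tax1bp1 had 169.5, 173 and 171 CPM in KO libraries, against 109, 105 and 112 CPM in control libraries (0.66 ± 0.06). Calcoco2 (NDP52) had 335 ± 17.8 CPM in KO and 228 ± 16.4 CPM in control libraries (0.55 ± 0.08), and Nbr1 285 ± 1.40 CPM in KO and 222 ± 1.64 CPM in control libraries (0.36 ± 0.05). Sqstm1 (p62), the receptor of ubiquitinated cargo, had 207, 202 and 200.2 CPM in KO libraries, against 169, 180.4 and 167 CPM in control libraries (0.24 ± 0.05), so its RNA rose modestly with no overlap. Of 39 lysosomal genes 12 fell (30.8%) and 7 rose (17.9%), and 7 fell without control replicate 2. Lamp1, a main membrane protein, fell (-0.34 ± 0.05), Lamp2 rose (0.35 ± 0.08), and Mitf, a factor of the TFEB family, rose (1.09 ± 0.12). The palindrome TCACGTGA, bound by that family, was found in 7 of 31 lysosomal promoters (22.6%), against 1.98% of all 12143; 2 of these 7 genes rose and 5 fell, among them the chloride transporter Clcn7 (-0.56 ± 0.07). Of 38 proteasome genes 5 rose (13.2%) and 9 fell (23.7%). With the collagen score 1 rose and 16 fell, and the count of risen ones was 3 without control replicate 1 or KO replicate 2. Psmd3, of the lid, fell (-0.46 ± 0.05).

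Many genes of sterol synthesis were lower in KO. Of 26 tested genes of cholesterol synthesis and uptake 14 fell (53.8%) and 1 rose, Stard4 on chromosome 18, which did not pass without any 1 of the 6 libraries; 12 fell when chromosome 18 was dropped. Their median was -0.25. Hmgcs1, an early enzyme of the pathway, had 299.8, 318 and 294 CPM in KO libraries, against 398, 431 and 396 CPM in control libraries (-0.43 ± 0.09, edgeR adjusted p = 9.02e-04). The groups did not overlap. Insig1, a sterol sensor and itself an SREBP target, fell (-0.57 ± 0.08). For fatty acid synthesis 8 of 14 fell (57.1%), 6 without chromosome 18, and 3 rose, with 5 fallen without control replicate 1, control replicate 2, KO replicate 2 or KO replicate 3; Fasn, the synthase, fell (-0.48 ± 0.08) and Elovl6, an elongase, rose (0.56 ± 0.08).

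Of 21 glycolysis genes 9 fell (42.9%) and 1 rose. Pkm, pyruvate kinase, had 1206, 1306 and 1175 CPM in KO libraries, against 1819, 1865 and 1843 CPM in control libraries (-0.58 ± 0.09). Slc2a1, a glucose transporter, had 168 ± 6.62 CPM in KO and 259 ± 3.98 CPM in control libraries (-0.63 ± 0.18), and Slc16a3, a lactate exporter, 24.9 ± 4.81 CPM in KO and 49.8 ± 1.69 CPM in control libraries (-0.99 ± 0.25). The riser was Ldhb, a lactate dehydrogenase subunit, with 388, 438 and 393 CPM in KO libraries, against 206, 201 and 194 CPM in control libraries (1.02 ± 0.18). Gapdh averaged 3593 ± 69.6 CPM in KO and 3592 ± 152 CPM in control libraries (0.00). Respiratory complexes II to V had 16 of 38 genes lower (42.1%) and 2 higher, and complex I had 6 of 36 lower, 4 without chromosome 18, and 1 higher (0 without control replicate 1 or KO replicate 1, and 2 without control replicate 2). The changes were small, as for Cyc1 (-0.24 ± 0.06) and Uqcrc1 (-0.31 ± 0.05), and without control replicate 2, KO replicate 1 or KO replicate 3 the first count was 10. Mitochondrial ribosomal proteins had 16 of 78 lower (20.5%), near the background, or 9 without control replicate 2 and 10 without KO replicate 1 or KO replicate 3, and the chaperonin Hspd1 fell (-0.43 ± 0.05).

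Genes of purine synthesis and salvage had 9 of 18 lower (50%), or 7 without chromosome 18, and none higher. Pnp, purine nucleoside phosphorylase, had 25.4, 33.9 and 26.5 CPM in KO libraries, against 65.0, 61.0 and 57.8 CPM in control libraries (-1.10 ± 0.11). Aprt, the adenine salvage enzyme, fell (-0.37 ± 0.08). Of 25 genes of the NRF2 response 9 fell (36.0%) and 5 rose, 3 without control replicate 3. Keap1, the adaptor that marks NRF2 for degradation and a partner of p62, had 31.2, 26.8 and 27.6 CPM in KO libraries, against 14.4, 12.0 and 15.4 CPM in control libraries (1.03 ± 0.10). NRF2 targets such as Txnrd1 (-0.53 ± 0.05) and Gclc (-0.41 ± 0.07) fell, and Srxn1 rose (0.46 ± 0.09).

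A part of the cytosolic ribosomal protein genes rose, by small amounts outside chromosome 18. Of 76 tested 27 rose (35.5%) and 2 fell (1 with the collagen score, 0 without control replicate 2 or KO replicate 2, and 1 without KO replicate 1 or KO replicate 3), with a median of 0.11. The largest, Rpl17 (0.77 ± 0.05) and Rps14 (0.73 ± 0.07), lie on chromosome 18, and the others are at or below the change of Rps7 (0.27 ± 0.06); pseudogene copies make single values uncertain. Ribosome biogenesis genes had 8 of 26 lower (30.8%) and 3 higher, and 14 fell with the collagen score as covariate. Nop10, of the H/ACA particle, fell most (-0.82 ± 0.13).

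The count of p53 targets moved with the fit. Of 22 tested 8 fell (36.4%) and 1 rose, whereas 5 fell and 6 rose with the collagen score. None rose without control replicate 1, KO replicate 1 or KO replicate 3, and 4 fell without control replicate 1, control replicate 2, KO replicate 1 or KO replicate 3. Bbc3 (PUMA), a death activator, had 41.9, 48.1 and 54.9 CPM in KO libraries, against 96.5, 81.5 and 94.0 CPM in control libraries (-0.91 ± 0.22), and Mdm2, the ligase that restrains p53, 235 ± 6.95 CPM in KO and 389 ± 22.7 CPM in control libraries (-0.73 ± 0.18). Cdkn1a (p21) had 112 ± 13.8 CPM in KO and 135 ± 11.2 CPM in control libraries and did not pass. In the BCL2 family 8 of 15 fell (53.3%), 5 without control replicate 2, among them the survival gene Mcl1 (-0.41 ± 0.07), and Bmf, a death activator, rose (0.90 ± 0.12).

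Most genes of the 2-cell-like list fell, but their summed level did not. Of 21 tested 17 fell (81.0%) and 1, Eif1a on chromosome 18, rose, with a median of -2.07. Summed over the 21, the level was 277 to 301 CPM in KO and 254 to 273 CPM in control libraries. Zscan4d had 3.37, 2.25 and 4.67 CPM in KO libraries, against 12.1, 8.83 and 14.3 CPM in control libraries (-1.78 ± 0.36), and Usp17la 2.38, 3.00 and 3.64 CPM in KO libraries, against 11.1, 10.5 and 13.5 CPM in control libraries (-1.96 ± 0.24). Both families have near-identical copies, and levels were low, so the members are not independent of each other. Of 21 germline genes 7 fell (33.3%) and 1 rose, whereas 3 fell and 5 rose with the collagen score. Mael, a protein of the piRNA pathway, had 50.9 ± 3.29 CPM in KO and 88.6 ± 2.67 CPM in control libraries (-0.80 ± 0.07). Imprinted genes moved both ways, 7 of 30 higher and 10 lower (33.3%). Peg10, a retrotransposon-derived gene expressed from the paternal copy, had 293, 284 and 303 CPM in KO libraries, against 706, 728 and 693 CPM in control libraries (-1.27 ± 0.13, edgeR adjusted p = 1.55e-06), and Rian, a noncoding RNA expressed from the maternal copy, 255 ± 10.9 CPM in KO and 139.8 ± 1.91 CPM in control libraries (0.87 ± 0.21). The count of risen imprinted genes was 4 with the collagen score and 4 without control replicate 2, control replicate 3 or KO replicate 3.

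At day 4, in 6 other libraries, part of the day 2 pattern was found again, and some gene lists no longer leaned the same way. There 5903 of the 15696 genes passed (37.6%). Of the 3200 genes higher in KO at day 2, 849 were higher at day 4 (26.5%, against 19.5% of all tested). They made up 27.8% of the genes higher at day 4. Another 473 were lower (14.8%, against 18.1% of all tested). Of the 3356 lower at day 2, 878 were lower at day 4 (26.2%, against 18.1% of all tested). They made up 30.9% of the genes lower at day 4. Another 645 were higher (19.2%, against 19.5% of all tested). Opposite calls were thus no more frequent than among all tested genes. The effect of KO differed between the days for 5674 genes (36.1%) by the edgeR interaction test. G2 and M phase genes turned round: of 28, 2 were higher and 15 lower in KO at day 4, and the effect differed for 24. Their median log2 fold change was 0.41 at day 2 and -0.18 at day 4. Kif11 lost its rise without reversing, with a log2 fold change of -0.05 ± 0.06 at day 4 (edgeR adjusted p of the difference = 9.94e-07). Ribosomal proteins, cholesterol genes and Wnt genes lost their day 2 lean, with day 4 medians of -0.04, 0.09 and 0.04. Of 76 ribosomal proteins 3 were higher and 11 lower at day 4. Of 26 cholesterol genes 9 were higher and 6 lower, and of 22 Wnt genes 5 were higher and 2 lower.

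Other groups leaned the same way on both days. Stress response genes were 16 higher and 1 lower at day 4, naive genes 13 and 1, Nodal genes 12 and 0, epithelial genes 5 higher and 17 lower, 2-cell-like genes 0 and 20, and glycolysis genes 0 and 19. Nanog at day 4 had 682 ± 95.1 CPM in KO and 413 ± 4.27 CPM in control libraries (log2 0.72 ± 0.10), and the difference of its effect from day 2 had an edgeR adjusted p of 0.0323. Spic, by contrast, averaged 0.851 ± 0.437 CPM in KO and 0.657 ± 0.278 CPM in control libraries at day 4 and did not pass (0.40 ± 0.42; difference, edgeR adjusted p = 5.37e-04). Etv4 averaged 175 ± 3.80 CPM in KO and 171 ± 13.1 CPM in control libraries at day 4 (0.04 ± 0.18; difference, edgeR adjusted p = 0.0019). Klf4 and Tbx3, which had not passed at day 2, were higher in KO at day 4 (1.11 ± 0.11 and 0.96 ± 0.06). Atg7 itself had 11.9 ± 1.28 CPM in KO and 19.5 ± 0.379 CPM in control libraries at day 4 (-0.71 ± 0.11).

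**Figure D5:**
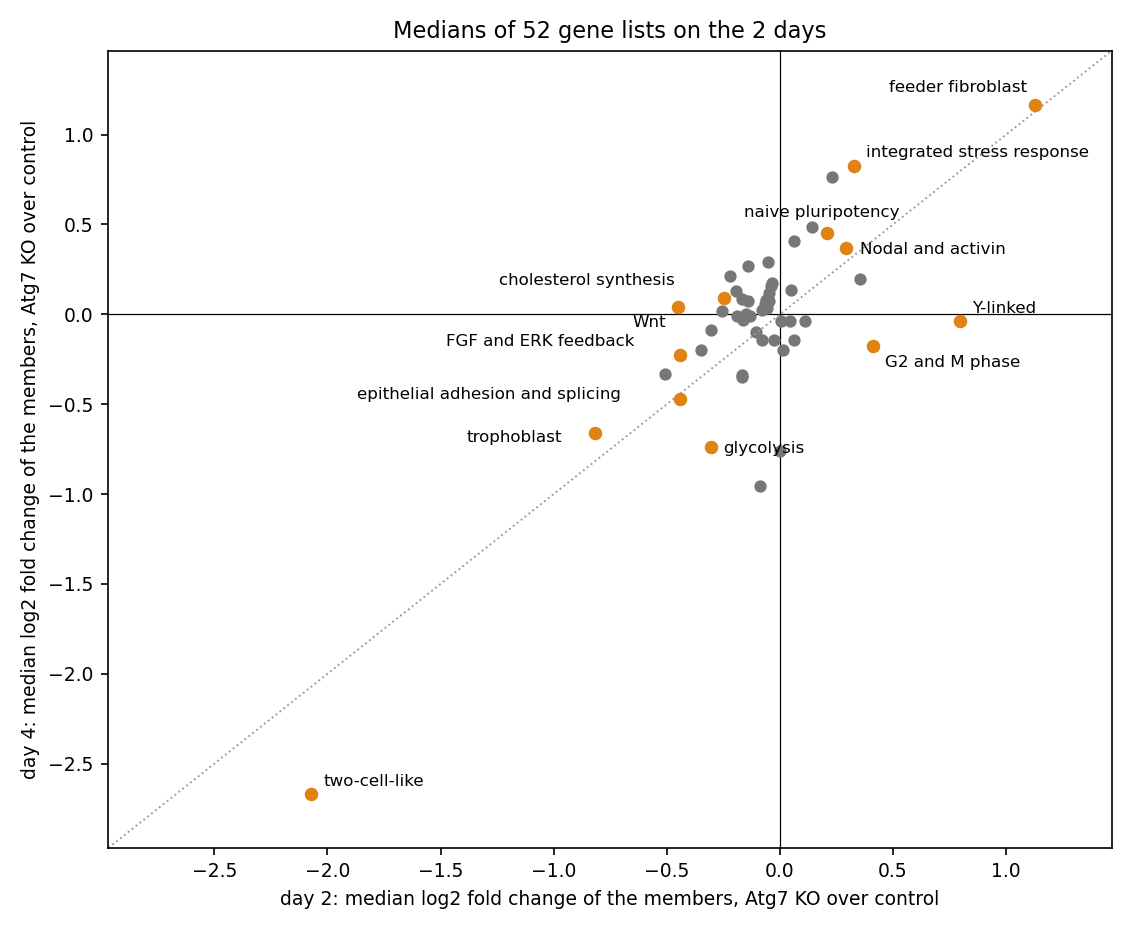
Each point is 1 of 52 gene lists, placed by the median log2 fold change of KO over control of its tested members at day 2 (x axis) and at day 4 (y axis); the dotted line marks equal values. The G2 and M phase list lies at 0.41 at day 2 and below 0 at day 4, whereas the 2-cell-like and trophoblast lists are below 0 and the stress response list above 0 on both days.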

How the data were processed

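RNA-seq of polyadenylated RNA was measured in 15 libraries, 3 per group by the titles, and Atg7 KO was compared with control at day 2. The authors deposited raw counts for each gene symbol. STAR, featureCounts, StringTie and DESeq2 are named with mm10 and GRCm38, per the submitters' processing notes; their versions, the annotation, strandedness and the treatment of shared reads were not given in the sources used here, so overlapping, antisense and near-identical genes are uncertain.

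The test was edgeR 4.0.16 (R 4.3.3), fitted on all 15 libraries with TMM scaling and a mean per group (filterByExpr, minimum count 10, minimum total 15). P-values were adjusted by Benjamini-Hochberg over 15696 genes. Levels are CPM with TMM-scaled sizes; counting error is covered by the model only. The members and gene lists were chosen with earlier results of these data known. Named genes are Atg7, the 12 largest increases and decreases past the test with at least 5 CPM and no overlap, the 6 of each with the smallest p (without predicted or Y-linked genes), and list members; a few members are not reported here. Chromosomes are from RefSeq, which matched 24417 symbols and 474 synonyms.

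On simulated counts with 1.5-, 2- and 4-fold changes planted in KO against control at day 2 (15553 genes), 65.7%, 79.1% and 100% were recovered, with 3 calls among 15353 unchanged genes. The changes were planted in 67, 67 and 66 genes, none with a mean under 1 CPM. Counts were drawn independently for each gene, so shifts shared by many genes were not simulated. These rates need not hold for the real comparison, where 41.8% of genes were called. Alternatives were RLE and upper quartile scaling, no and stricter filters (10 CPM in 3 libraries), DESeq2 1.42.0, only the 6 libraries, a replicate block, a minimum change of 1.5-fold, no chromosome 18 genes, a collagen score as covariate, and each library left out.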

Additional observations from a re-analysis of the deposited data

Results flagged for a closer look

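Each value here is the KO effect at day 2 minus the KO effect at day 4 on the log2 scale, flagged because the edgeR interaction test of that difference passed at an adjusted p of 0.05. It did so for 5674 of 15696 genes (36.1%), and for 23 of the 37 genes picked by size or p at day 2.

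Among the genes that rose at day 2, the effect was larger at day 2 by 2.80 for Spic, 2.00 for Glcci1, 1.60 for Lefty1, 2.60 for Rasgrp1, 2.31 for Dusp27 and 2.09 for Ifitm1. Spic had 3.19 at day 2 and 0.40 at day 4, Rasgrp1 2.13 and -0.47, and Glcci1 2.47 and 0.47. For genes of chromosome 18, whose median effect was 0.56 at day 2 and 0.01 at day 4, the difference was 0.89 for Sall3, 1.25 for Kif20a, 1.07 for Galnt1, 0.95 for Pias2, 1.13 for Npc1 and 0.60 for Osbpl1a.

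Among the genes that fell at day 2, the difference was -1.63 for Cdcp1, -1.85 for Galnt3, -1.72 for Crb3, -1.23 for Ret, -1.24 for Pllp, -1.43 for Wnt7b, -1.26 for Cdkl2, -1.07 for Morc4, -1.11 for Sult4a1, -0.93 for Nptx2 and -0.73 for Chka. Galnt3 had -2.36 at day 2 and -0.52 at day 4, and Cdkl2 -1.50 and -0.24. These genes were chosen for their day 2 effect, which by itself makes a larger value at day 2 likely. With 3 libraries a group, single libraries were not tested as outliers.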

How the results depend on the processing

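Of 202 genes named as changed, all kept their call under RLE and upper quartile scaling, no filter, DESeq2, the replicate block and the fit of only the 6 libraries of day 2, and 192 in all 6 refits without 1 library. When tested against a 1.5-fold minimum, 83 kept it and 119 did not. Many of the 202 were picked for a small p or a large effect in these data, which makes a kept call likely beforehand. With the collagen score 13 lost the call and 3 turned round, Col1a2 (-0.033), Col3a1 (-0.027) and Lum (-0.45); Col1a1, Col1a2 and Col3a1 make up the score, so their loss is fixed by its construction. In that fit 4999 calls were shared with the fit without it. Genome-wide the fits without 1 library called 5112 to 5626 genes. Of the 6556 calls of the full fit, each found 5027 to 5473 again in the same direction. Against a 1.5-fold minimum 847 genes passed, 425 higher and 422 lower. That test left 4 risen naive genes, 2 in the Nodal pathway, 2 stress response genes, 2 amino acid transporters, 0 tRNA synthetases, 1 ribosomal protein, 4 of G2 and M phase and 71 on chromosome 18. It left 4 fallen FGF genes, 2 Wnt, 5 trophoblast, 7 epithelial, and 0 each for glycolysis, cholesterol, complexes II to V and S phase. Fallen FGF genes were 16 with the collagen score, and fallen Wnt genes 7 with the stricter filter. Only the 6 libraries gave 13 risen transporters, 16 fallen glycolysis genes and a chromosome 18 median of 0.58; without 1 library that median was 0.55 to 0.56 (0.545 without control replicate 1) and fallen genes of complexes II to V were 10 to 15. Deviations of same-numbered KO and control replicates had r of -0.023, 0.057 and 0.046 across genes, which are not independent. Other pairs had -0.075 to 0.033. Values this small cannot decide whether same-numbered libraries share a culture or preparation, which the labels do not state. The replicate block called 6393 genes. Alternatives for day 4 and for the difference between days were added after seeing the data and stayed within 1.5 times (4917 to 6287 and 4805 to 7027 genes). The cause of these shifts was not tested. Of 104 list counts, the fit of only the 6 libraries moved 33 up and 1 down by over 1.5 times, the stricter filter 2 up and 12 down, and the refits without 1 library between 12 and 24 each, at most 1 of them up. Genome-wide the first of these fits called 8532 of 14964 genes and the stricter filter 5175 of 10577, so these list counts moved with their background. Fewer calls were made among genes of low counts, 21.3% under 1 CPM against 49.6% from 100 CPM; depth itself was not varied.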

Other observations

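Further gene groups held a few strong members. Of 26 tested genes of mitochondrial dynamics and biogenesis 4 rose and 6 fell (23.1%), or 4 fell without chromosome 18. Twnk, the helicase of mitochondrial DNA, had 42.5, 37.1 and 36.6 CPM in KO libraries, against 26.2, 23.0 and 26.5 CPM in control libraries (log2 fold change 0.62 ± 0.08), while the import channel Tomm40 had 101 ± 12.7 CPM in KO and 144 ± 6.76 CPM in control libraries (-0.50 ± 0.10). Hspe1, the partner of Hspd1 in the mitochondrial chaperonin, fell (-0.40 ± 0.07). Of 18 hypoxia genes 2 rose and 3 fell; 1 rose without control replicate 1, control replicate 3, KO replicate 1 or KO replicate 3, and 1 fell without control replicate 2, KO replicate 1 or KO replicate 3. Epas1 (HIF-2 alpha) had 59.7, 64.8 and 60.1 CPM in KO libraries, against 99.6, 106 and 101 CPM in control libraries (-0.73 ± 0.07), with no overlap.

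Of 17 basement membrane genes 4 rose and 3 fell, against 2 and 6 with the collagen score; 1 rose without control replicate 1 or control replicate 3, and 2 without KO replicate 1, 2 or 3. Nid2, Lama5 and Col4a1, which build the sheet beneath the epiblast, fell (-0.34 ± 0.07, -0.39 ± 0.07 and -0.39 ± 0.10). Of 23 interferon and Ifitm genes 6 rose (26.1%) and 2 fell, or 5 fell with the collagen score. Ifitm3 had 37.8 ± 4.26 CPM in KO and 28.4 ± 3.49 CPM in control libraries (0.41 ± 0.11), whereas Tap1, the peptide transporter of antigen presentation, had 27.5, 31.1 and 27.3 CPM in KO libraries, against 55.0, 54.6 and 53.5 CPM in control libraries (-0.92 ± 0.21) and did not pass with the collagen score as covariate. Of 6 blood and endothelial markers 1 rose and 2 fell; none rose in the refits without 1 library other than that without control replicate 3, and 1 fell without control replicate 2, control replicate 3, KO replicate 1 or KO replicate 3. The globin genes Hbb-bs and Hba-a1 were at 0 in all 6 libraries.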
